A study of Mus musculus with 11 samples.

Results

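Red cell precursors and young red cells carry a small set of transcripts at very high levels, and 35 genes of this lineage were followed here in knee cartilage of mice. They code for haemoglobin chains, enzymes of haem synthesis, iron carriers, proteins of the red cell membrane and its skeleton, carbonic anhydrases, transcription factors and proteins of late maturation. The genes were chosen by their known role in red cells, with earlier results of these data known. The exception was Ube2o, which was chosen by its level in these libraries because it differed between the groups. Its values are given as a description, with no test. Of the 35 listed genes, 34 were found among the 55421 genes of the count files, Ahsp was not analysed here, and all 34 passed the filter on low counts. The 11 libraries hold poly(A) RNA of articular cartilage from C57BL/6 animals aged 14 weeks and were taken 4 weeks after surgery. Operated knees had the medial meniscus destabilized (DMM), which models osteoarthritis. The c-FosDCh DMM group has 4 libraries from operated knees of mice whose label is read here as a Fos deletion in chondrocytes, with the driver of the deletion not stated in the labels. The c-FosWT DMM group has 3 libraries from operated knees of wild-type mice. The c-FosWT contralateral group has 4 libraries from the other, unoperated knee of wild-type mice, and 3 of these animals gave both knees. Unoperated c-FosDCh knees were not analysed here, so surgery in that genotype has no baseline of its own. The titles name separate animals within each group, so the spread between libraries of a group is a spread between animals.

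Haemoglobin is built from alpha and beta chains that each hold a haem, and the haem is made in a chain of enzyme steps that begins and ends in the mitochondrion. GATA1, TAL1 and KLF1 switch on these genes in bone marrow erythroblasts, which later lose the nucleus and enter the blood as reticulocytes that still carry globin RNA. Cartilage itself has no vessels, while the bone beneath it holds marrow. Of the 34 genes, 18 were classed as used mainly in the blood lineage (among them the globins, Alas2, Slc4a1, Klf1 and Gata1). The other 16 were classed as also widely expressed in other tissues (among them most haem enzymes and Tfrc). The second class also holds genes of the red cell membrane skeleton, such as Sptb, Ank1 and Add2.

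The upstream sequences of 5 of these genes, from the globins, haem synthesis and the transcription factors, are shown to compare them for the letter patterns that red cell factors are known to read; 4 of the 5 carry one and Hbb-bt does not. They are the 220 bases before the start given by RefSeq (GRCm38.p6), on the strand of the gene. Capitals mark AGATAA or TGATAA, the core read by GATA factors, or CACACCC, the box read by KLF1, on either strand.
Hbb-bs: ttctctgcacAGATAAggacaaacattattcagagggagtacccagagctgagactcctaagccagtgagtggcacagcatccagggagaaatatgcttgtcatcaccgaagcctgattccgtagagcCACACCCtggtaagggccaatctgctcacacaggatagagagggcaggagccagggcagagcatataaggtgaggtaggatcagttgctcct
Hbb-bt: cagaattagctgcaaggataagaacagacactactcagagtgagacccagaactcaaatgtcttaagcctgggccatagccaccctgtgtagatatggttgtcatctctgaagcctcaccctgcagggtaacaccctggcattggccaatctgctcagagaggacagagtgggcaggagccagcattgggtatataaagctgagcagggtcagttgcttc
Hba-a1: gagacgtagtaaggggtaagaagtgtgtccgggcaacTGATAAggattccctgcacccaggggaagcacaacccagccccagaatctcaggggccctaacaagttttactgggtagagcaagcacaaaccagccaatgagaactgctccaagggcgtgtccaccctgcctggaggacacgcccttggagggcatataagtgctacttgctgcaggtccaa
Alas2: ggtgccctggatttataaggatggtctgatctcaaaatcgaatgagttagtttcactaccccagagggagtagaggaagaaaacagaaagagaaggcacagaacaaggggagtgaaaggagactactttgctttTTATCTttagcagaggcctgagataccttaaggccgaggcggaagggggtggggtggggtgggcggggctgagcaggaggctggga
Klf1: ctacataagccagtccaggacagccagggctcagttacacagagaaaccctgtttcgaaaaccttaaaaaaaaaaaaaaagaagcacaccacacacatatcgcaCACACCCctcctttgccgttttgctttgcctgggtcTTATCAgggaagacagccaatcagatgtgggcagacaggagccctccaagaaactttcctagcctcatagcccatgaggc
In Hbb-bs, an adult beta globin gene (chr7:103827929-103828148, minus strand), AGATAA begins 210 bases and CACACCC 92 bases before the start. In Hbb-bt, the other adult beta globin gene here (chr7:103813924-103814143, minus strand), none of these letters were found in this window, and its alignment with Hbb-bs had 69% identity. In Hba-a1, an adult alpha chain (chr11:32283452-32283671, plus strand), TGATAA begins 183 bases before the start, and the sequence of its copy Hba-a2 had 217 identical, 0 mismatched and 6 gap positions against it. In Alas2 (chrX:150547197-150547416, plus strand) AGATAA lies on the other strand, 86 bases before the start. In Klf1 (chr8:84901762-84901981, plus strand) CACACCC begins 116 bases before the start and TGATAA lies on the other strand at 80 bases. RefSeq promoters, from 250 bases before to 50 after a start, were held for 25 of the members. AGATAA or TGATAA, counted together on both strands, was found for 15 of these 25 (60%), 12 of 15 in the blood lineage class and 3 of 10 in the widely expressed class, against 21% of all 27025 genes with a promoter in the table. CACACCC was found for 5 of 25 members (20%), against 9.05% of all genes. TGAGTCA, the core of the NF-E2 site and also of the AP-1 site that Fos proteins bind, was found for 3 of 25 members (12%; Hbb-bs, Kel and Trim10), against 5.95% of all genes. A match is a run of letters, and binding was not measured.

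Gene counts per library ranged from 13593454 to 18280558. Fos itself had 19.4, 10.9, 29.5 and 33 CPM (counts scaled to a common library total with TMM) in c-FosDCh DMM libraries, against 12.1, 14.1 and 9.01 CPM in c-FosWT DMM and 17.1, 24.8, 22 and 15.7 CPM in c-FosWT contralateral libraries. Counts over the whole gene do not check a deletion of part of it, and 3 of the 4 c-FosDCh DMM values were above all 3 c-FosWT DMM values. Cartilage markers were detected in every library, all 15 of 15, with a summed level of 22031 to 78561 CPM in c-FosDCh DMM, 6673 to 17889 CPM in c-FosWT DMM and 21256 to 38577 CPM in c-FosWT contralateral libraries. Replicates 3 and 4 of c-FosDCh DMM stood apart within their group, with 64998 and 78561 CPM of cartilage markers and the lowest granulocyte levels of the group.

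The red cell genes were at their highest in operated wild-type knees. The summed level of the 34 genes was 4768, 6721, 2600 and 1367 CPM in c-FosDCh DMM libraries, against 11729, 13998 and 18536 CPM in c-FosWT DMM and 4291, 4025, 3452 and 9896 CPM in contralateral libraries. Every c-FosWT DMM sum was thus above every sum of the other groups, and contralateral replicate 4 came nearest. Replicate 3 of c-FosWT DMM held the highest level of 33 of the 34 genes, with Tfrc as the exception, and replicate 4 of c-FosDCh DMM held the lowest level of 27. Within the contralateral group, replicate 4 was highest for all 34 genes. Bulk RNA cannot tell fewer cells of a type from less RNA per cell.

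**Figure D1:**
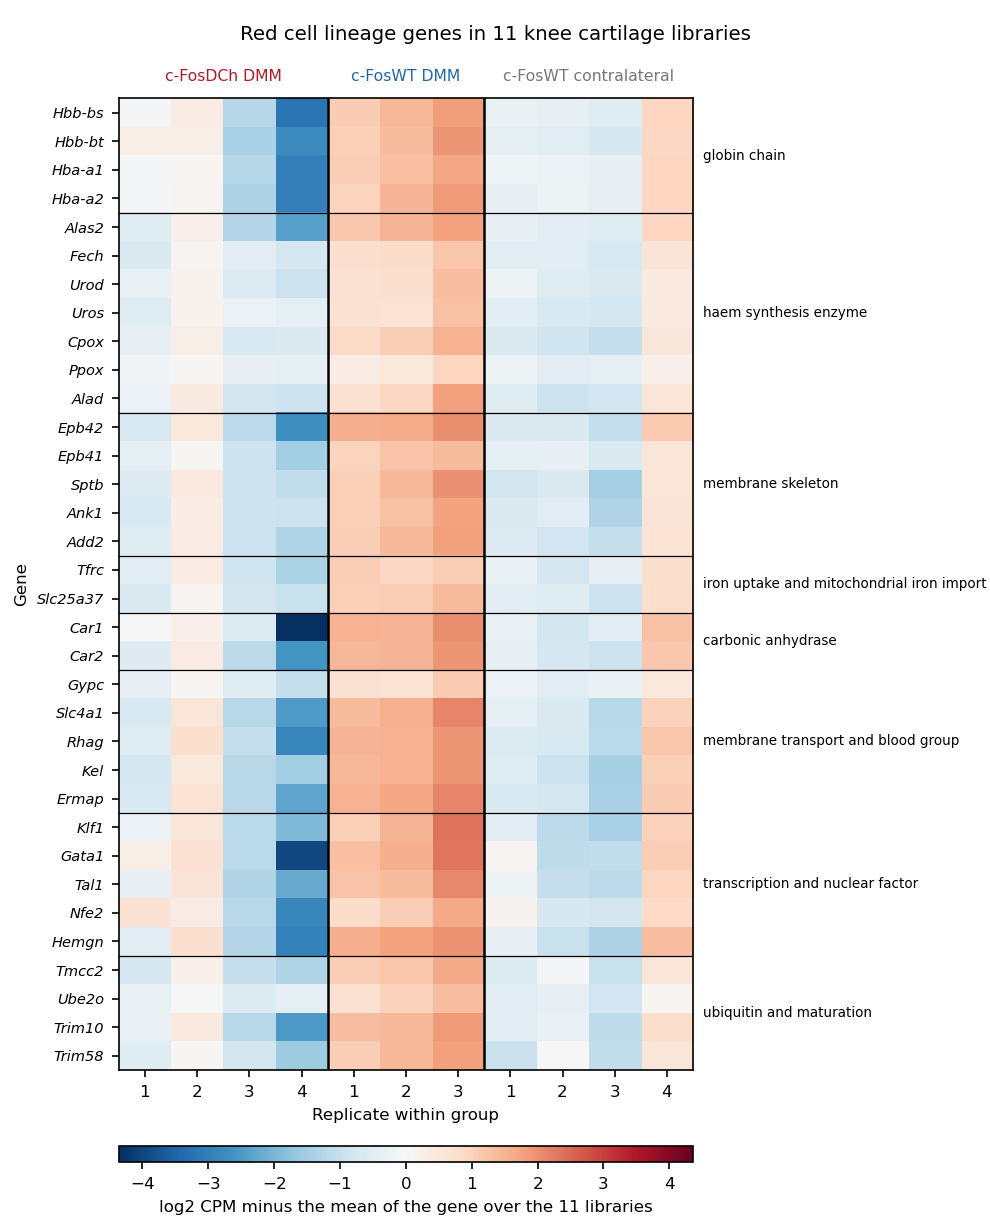
Level of 34 red cell lineage genes (rows, ordered by role) in each of the 11 libraries (columns, by group and replicate), as log2 CPM minus the mean of the gene over all libraries. The 3 c-FosWT DMM columns are above the mean for the genes shown, c-FosDCh DMM replicate 4 is the lowest for 27 genes, and contralateral replicate 4 is the highest of its group for all 34.

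Per kilobase of exon, which allows levels of genes to be compared, the beta globin Hbb-bs led with 1652 CPM per kb in c-FosDCh DMM, 6701 in c-FosWT DMM and 2518 in contralateral libraries. Hbb-bt followed with 472, 1805 and 637 CPM per kb in the same groups, and Hba-a1 and Hba-a2 came next with 1097 and 936 CPM per kb in c-FosWT DMM libraries. The highest member that is not a globin was Slc4a1, the anion exchanger band 3 of the red cell membrane, at 53.4, 263 and 76.6 CPM per kb. The lowest was Add2, beta adducin of the membrane skeleton, at 2.50, 9.44 and 2.79 CPM per kb. The globin pairs are near-identical copies. Of the stretches of 75 bases, the length of a read, only 35.7% in Hbb-bs, 43.4% in Hbb-bt, 37.8% in Hba-a1 and 19% in Hba-a2 are unique. Their single levels, their sums and their ratios to each other and to other genes are therefore uncertain.

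Among the globin chains, Hbb-bs (chr7:103826534-103828096) had 1788, 2302, 781 and 203 CPM in c-FosDCh DMM libraries, against 3963, 5045 and 6432 CPM in c-FosWT DMM and 1503, 1433, 1276 and 3523 CPM in contralateral libraries. The operated wild-type libraries were all above the others, and c-FosDCh DMM replicate 4 was the lowest of all 11. Hba-a1 (chr11:32283511-32284465) had 320, 357, 142 and 42.6 CPM in c-FosDCh DMM, against 719, 852 and 1101 CPM in c-FosWT DMM and 299, 285, 266 and 652 CPM in contralateral libraries. Hba-a2 (chr11:32296489-32297298) had 212, 243, 88.7 and 28.5 CPM in c-FosDCh DMM, against 437, 623 and 812 CPM in c-FosWT DMM and 173, 190, 174 and 433 CPM in contralateral libraries. Both alpha genes gave the order seen for Hbb-bs. Hbb-bt (chr7:103812524-103813996) had 552, 540, 170 and 65.3 CPM in c-FosDCh DMM, against 920, 1177 and 1710 CPM in c-FosWT DMM and 348, 322, 281 and 840 CPM in contralateral libraries.

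The balance of the chains moved much less than their level. Hbb-bt made up 23.6, 19, 17.9 and 24.3% of adult beta counts in c-FosDCh DMM, 18.8, 18.9 and 21% in c-FosWT DMM and 18.8, 18.4, 18.1 and 19.3% in contralateral libraries. Beta over alpha CPM was 4.4, 4.74, 4.11 and 3.77 in c-FosDCh DMM, 4.22, 4.22 and 4.26 in c-FosWT DMM and 3.92, 3.7, 3.54 and 4.02 in contralateral libraries. Reads that mapped to both copies of a pair stayed uncounted, and the unique share differs between the genes. The size of this ratio is therefore uncertain, and it is read only between libraries. The highest globin total, 10054 CPM, and the lowest, 340 CPM, thus lay far apart while beta over alpha stayed between 3.54 and 4.74. Alas2 CPM made up 3.12, 4.38, 4.49 and 7.36% of globin CPM in c-FosDCh DMM, 4.89, 4.74 and 4.39% in c-FosWT DMM and 4.37, 4.14, 4.49 and 4.59% in contralateral libraries, so that only c-FosDCh DMM replicates 1 and 4 lay outside 4.14 to 4.89%.

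Embryonic and other globins were nearly absent. Hbb-bh2 had 0 counts in every library, and Hbb-y, Hbb-bh1 and Hba-x had at most 2, 1 and 1 counts in a library. The theta globin Hbq1b was low but followed the adult chains, with a mean of 1.38 ± 0.78 CPM in c-FosDCh DMM (SD, n = 4), 6.10 ± 1.75 CPM in c-FosWT DMM (SD, n = 3) and 1.82 ± 1.59 CPM in contralateral libraries (SD, n = 4).

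In the haem pathway, Alas2 (chrX:150547375-150570638), the red cell form of the first and rate-limiting enzyme, had 89.7, 151, 53.1 and 25 CPM in c-FosDCh DMM, against 295, 365 and 442 CPM in c-FosWT DMM and 102, 92.4, 89.6 and 250 CPM in contralateral libraries. Fech, which inserts the iron in the last step, had 99.2, 164, 110 and 90.4 CPM in c-FosDCh DMM, against 253, 264 and 353 CPM in c-FosWT DMM and 109, 110, 96.7 and 223 CPM in contralateral libraries. Urod, an enzyme of the middle of the chain, had 45.3, 63.3, 36.9 and 29.2 CPM in c-FosDCh DMM, against 86.6, 91.3 and 143 CPM in c-FosWT DMM and 48, 39.3, 36.5 and 76.2 CPM in contralateral libraries. No c-FosDCh DMM or contralateral library reached the lowest c-FosWT DMM library for these 3 enzymes. The first held for 15.8% and the second for 10.1% of all tested genes. Fech and Urod are shown because of their small p in these same data, so their lack of overlap is not separate support. Replicate 4 of c-FosDCh DMM was less far from its group for Fech than for Alas2. Alas1, the form of the first enzyme used in all tissues and not a member, had 67.8 ± 31.5 CPM in c-FosDCh DMM (SD, n = 4), 113 ± 28.4 CPM in c-FosWT DMM (SD, n = 3) and 79.5 ± 24 CPM in contralateral libraries (SD, n = 4), with overlap between the groups.

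Iron enters the precursor through the transferrin receptor Tfrc (chr16:32608920-32632794), which had 176, 316, 132 and 93.2 CPM in c-FosDCh DMM, against 513, 454 and 512 CPM in c-FosWT DMM and 199, 147, 190 and 398 CPM in contralateral libraries. Slc25a37, mitoferrin-1, which takes iron into the mitochondrion, had 157, 254, 138 and 124 CPM in c-FosDCh DMM, against 499, 506 and 620 CPM in c-FosWT DMM and 171, 165, 128 and 406 CPM in contralateral libraries. For both carriers the c-FosWT DMM libraries lay close together and above all others. Slc25a37 is shown because of its small p in these same data, so its lack of overlap is not separate support. Of all tested genes, 15.8% lay without overlap above c-FosDCh DMM and 10.1% above contralateral libraries.

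Slc4a1 (chr11:102348824-102366203) had 245, 562, 168 and 69.7 CPM in c-FosDCh DMM, against 1013, 1154 and 1688 CPM in c-FosWT DMM and 301, 252, 170 and 776 CPM in contralateral libraries. Gypc, glycophorin C, which ties the membrane to its skeleton, had 32.2, 42.9, 28.5 and 20.7 CPM in c-FosDCh DMM, against 65.5, 62.8 and 89.8 CPM in c-FosWT DMM and 34.3, 29.6, 34 and 56.6 CPM in contralateral libraries. Both were highest in the operated wild-type knees without overlap, Slc4a1 by the wider margin. Such a gap held for 15.8% of all tested genes against c-FosDCh DMM and 10.1% against contralateral libraries. Gypc is shown because of its small p in these same data, so its gap is not separate support. Of the skeleton itself, Epb41, protein 4.1, had 135, 187, 96.1 and 63.9 CPM in c-FosDCh DMM, against 354, 421 and 468 CPM in c-FosWT DMM and 134, 141, 115 and 260 CPM in contralateral libraries. Sptb, beta spectrin, had 104, 204, 81.8 and 72.4 CPM in c-FosDCh DMM, against 314, 403 and 601 CPM in c-FosWT DMM and 88.4, 99.3, 55.3 and 219 CPM in contralateral libraries. Epb41 and Sptb were placed in the class also used in other tissues, and they lay in the same order as the globins. Ank1, ankyrin, which anchors band 3 to spectrin, had 81.6, 162, 68.7 and 67.1 CPM in c-FosDCh DMM, against 265, 308 and 439 CPM in c-FosWT DMM and 83.5, 90.6, 51.6 and 189 CPM in contralateral libraries. Add2 had 24, 45, 18.3 and 14.1 CPM in c-FosDCh DMM, against 73.6, 92 and 121 CPM in c-FosWT DMM and 23.6, 19.4, 16.8 and 53.4 CPM in contralateral libraries.

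**Figure D2:**
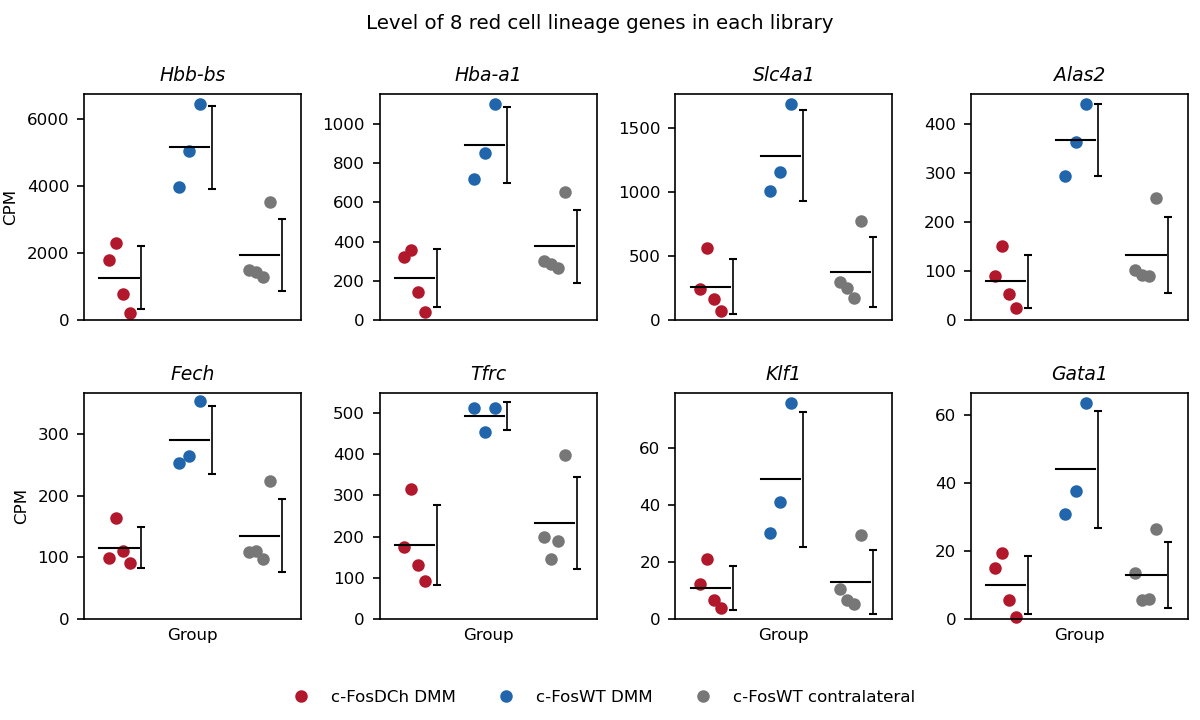
CPM of 8 red cell lineage genes, on linear axes from 0; points are libraries, short lines are group means and bars are the SD (cut at 0), with n = 4, 3 and 4 from left to right. The 3 c-FosWT DMM points lie above all points of the other groups for each of the 8 genes. Fech was among the members named for their small p in these same data. Of all tested genes, 15.8% lie so against c-FosDCh DMM and 10.1% against contralateral libraries.

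Of the transcription factors, Klf1 (chr8:84901928-84905291) had 12.3, 21, 6.57 and 3.89 CPM in c-FosDCh DMM, against 30.1, 41 and 75.6 CPM in c-FosWT DMM and 10.7, 6.71, 5.49 and 29.3 CPM in contralateral libraries. Gata1 (chrX:7959260-7978071) had 15, 19.4, 5.5 and 0.794 CPM in c-FosDCh DMM, against 31, 37.7 and 63.5 CPM in c-FosWT DMM and 13.5, 5.78, 5.91 and 26.5 CPM in contralateral libraries. The lowest Gata1 value, in c-FosDCh DMM replicate 4, rests on 10 counts, and that of Car1, a carbonic anhydrase of red cells, on 11 counts. Among genes of late maturation, Trim58, a ubiquitin ligase that takes part in loss of the nucleus, had 7.01, 10.4, 5.82 and 3.42 CPM in c-FosDCh DMM, against 21.3, 27.4 and 34.5 CPM in c-FosWT DMM and 5.14, 10.3, 4.83 and 14.7 CPM in contralateral libraries. Tmcc2, a transmembrane coiled-coil protein, had 78.1, 151, 63.4 and 52.3 CPM in c-FosDCh DMM, against 268, 300 and 401 CPM in c-FosWT DMM and 85.3, 121, 65.7 and 184 CPM in contralateral libraries. Klf1, Gata1, Trim58 and Tmcc2 had no overlap between c-FosWT DMM and either other group. Of all tested genes, 15.8% were lower without overlap in c-FosDCh DMM than in c-FosWT DMM. In c-FosWT DMM, 10.1% were higher without overlap than in contralateral libraries. Trim58 and Tmcc2 are shown because of their small p in these same data, so their lack of overlap is not separate support. The same holds for Fech, Urod, Slc25a37, Gypc, Epb41, Sptb, Ank1 and Add2, given above. Ube2o, the ubiquitin enzyme that helps to clear ribosomes from reticulocytes and the gene picked for its difference, had 90.5, 112, 74.4 and 83.5 CPM in c-FosDCh DMM, against 178, 230 and 287 CPM in c-FosWT DMM and 80.6, 87.6, 63.8 and 120 CPM in contralateral libraries. Its log2 fold change was -1.36 ± 0.23 (SE) between the DMM groups and 1.4 ± 0.23 between c-FosWT DMM and contralateral libraries, which is a description only.

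The effect of surgery was read in wild-type mice, c-FosWT DMM against c-FosWT contralateral. All 33 members other than Ube2o had a positive log2 fold change, with a median of 1.53, a lowest value of 0.80 in Ppox and a highest of 1.93 in Sptb; over all 18125 tested genes the median was -0.01 and 49.1% were positive. For 32 of the 33, with Nfe2 as the exception, each DMM library was above each contralateral library, which held for 10.1% of all tested genes. None passed the adjusted test: 0 of 33 members and 0 of 18125 genes (0.0%) had an adjusted p under 0.05 in edgeR's quasi-likelihood test, the lowest adjusted p was 0.182, and 26 members and 3605 genes had an unadjusted p under 0.05. limma-voom also called 0 members, whereas DESeq2 called 15 of the 33 higher, among 370 genes higher (2.48% of 14894) and 532 lower. The fold of Hbb-bs was 2.66 (log2 1.41 ± 0.67 SE, adjusted p = 0.265), that of Alas2 2.75 (1.46 ± 0.55, 0.202), that of Slc4a1 3.43 (1.78 ± 0.66, 0.201) and that of Klf1 3.73 (1.90 ± 0.67, 0.191), all in edgeR with Benjamini-Hochberg adjustment. By role, the median log2 fold change was 1.39 for the 4 globins, 1.17 for the 7 haem enzymes, 1.75 for the 5 skeleton proteins, 1.77 for the 5 proteins of membrane transport and blood groups and 1.74 for the 5 transcription and nuclear factors.

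Both knees of 3 wild-type animals could be compared directly. All 33 members were higher in the DMM knee than in the contralateral knee of each of the 3 animals. For 32 of them this followed from the lack of overlap between the same libraries, so it is not separate support. The share of all genes higher in each of the 3 animals is not given here. The median difference was 1.48 log2 CPM in animal 1, from 0.58 (Ppox) to 2.23 (Epb42); 1.82 in animal 2, from 0.93 (Ppox) to 2.70 (Hemgn); and 0.88 in animal 3, from 0.36 (Tfrc) to 1.45 (Sptb). Hbb-bs was 2.64 times as high in the DMM knee in animal 1, 3.52 times in animal 2 and 1.83 times in animal 3, whose contralateral knee is replicate 4. Gata1 was 2.30, 6.52 and 2.40 times as high in the same order. The granulocyte level (mean log2 CPM of 18 markers) was higher in the DMM knee by 0.05 in animal 1, by 1.52 in animal 2 and by 0.46 in animal 3. Other tissue differed between the knees of animal 1. Summed markers, DMM against contralateral, were 9318 against 293 CPM for skeletal muscle, 17889 against 35283 CPM for cartilage and 2846 against 2068 CPM for osteoclasts. They were 820 against 767 CPM for macrophages, 352 against 336 CPM for B cells and 88.7 against 99.6 CPM for mast cells and basophils. The part of these tissues in the red cell difference was not tested. With the animal as a block in edgeR over these 6 libraries, the members' median log2 fold change was 1.49. In that fit 0 of 33 members passed, as did 0 of 17420 genes.

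**Figure D3:**
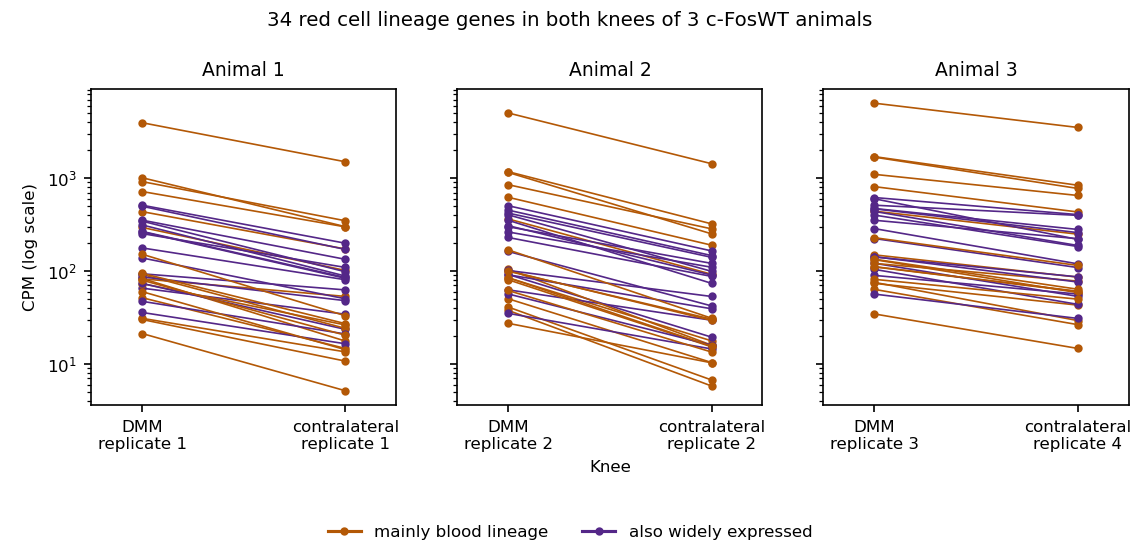
CPM (log scale) of 34 red cell lineage genes in the DMM knee and the contralateral knee of the 3 c-FosWT animals that gave both; each line is a gene, coloured by class. All lines run downward from the DMM to the contralateral knee, with the smallest median difference, 0.88 log2 CPM, in animal 3.

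Between the operated knees, c-FosDCh DMM against c-FosWT DMM, the red cell genes were lower in c-FosDCh. All 33 members had a negative log2 fold change, with a median of -2.02 and a range from -2.37 (Epb42) to -0.80 (Ppox), against a median of -0.01 over all tested genes, of which 49.5% were positive. Every c-FosDCh DMM library was below every c-FosWT DMM library for all 33, which held for 15.8% of tested genes. In edgeR's quasi-likelihood test 23 of 33 members fell at an adjusted p under 0.05 and 0 rose, beside 3.79% of all tested genes that fell; over all genes 1929 rose (10.6%) and 687 fell, or 1176 and 981 when libraries were scaled by their totals. DESeq2 called 32 of 33 lower, beside 13.3% of genes, and limma-voom 30, beside 8.2% of genes. All 7 haem enzymes fell, from Alas2 with a 4.61-fold lower level (log2 -2.20 ± 0.55 SE, adjusted p = 0.0364) and Fech with a 2.51-fold lower level (-1.32 ± 0.31, 0.0336) to Ppox with a 1.74-fold lower level (-0.80 ± 0.20, 0.0366). All 5 skeleton genes fell, among them Epb41 3.44-fold (log2 -1.78 ± 0.37, adjusted p = 0.0332) and Sptb 3.81-fold (-1.93 ± 0.49, 0.0366). Both iron carriers fell, Slc25a37 3.22-fold (log2 -1.69 ± 0.39, adjusted p = 0.0332) and Tfrc 2.75-fold (-1.46 ± 0.42, 0.0458). All 4 globins were lower, and the alpha genes passed. Hba-a1 was 4.13-fold lower (log2 -2.05 ± 0.60, adjusted p = 0.0482) and Hba-a2 4.37-fold lower (-2.13 ± 0.62, 0.0480). The beta genes did not pass, with -2.02 ± 0.67 for Hbb-bs (adjusted p = 0.0639) and -1.94 ± 0.67 for Hbb-bt (0.0688). Slc4a1, Gypc and Kel fell among the 5 genes of membrane transport and blood groups (Slc4a1 4.92-fold, log2 -2.30 ± 0.67, adjusted p = 0.0477), as did Car2 and the 3 maturation genes Tmcc2, Trim10 and Trim58 (Trim58 4.14-fold, -2.05 ± 0.44, 0.0332). None of the 5 transcription and nuclear factors passed: Klf1 had -2.15 ± 0.67 (adjusted p = 0.0557), Gata1 -2.11 ± 0.82 (0.0901), Tal1 -2.10 (0.0544), Hemgn -2.23 (0.0721) and Nfe2 -1.46 (0.139). The other members that did not pass were Car1, Rhag and Ermap, the last with an adjusted p of 0.0504.

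The widely expressed members passed as lower in 15 of 15 cases with a median of -1.50. The members used mainly in blood passed as lower in 8 of 18 cases, with a larger fall at a median of -2.12. All 18 of these were negative and without overlap between the DMM groups. Over all tested genes, 3.79% passed as lower and 15.8% were lower without overlap. Replicate 4 of c-FosDCh DMM had a median of 5.28% of the c-FosWT DMM mean over the blood lineage members (1.49 to 12.3%) and 22.9% over the widely expressed ones (5.24 to 50.3%), while replicate 2 of that group had 43.5% and 53.4%. The count of 23 rests on the libraries used. It was 0 without c-FosDCh DMM replicate 3 or 4, c-FosWT DMM replicate 2 or 3, or contralateral replicate 1 or 2, each left out alone, 15 without c-FosWT DMM replicate 1, 14 without contralateral replicate 3 and 30 without c-FosDCh DMM replicate 2. It was 0 when only the libraries of both DMM groups entered the fit. The median log2 fold change of the members stayed between -2.35 and -1.74 in the fits that left out 1 library, and no member changed direction in any of them.

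**Figure D4:**
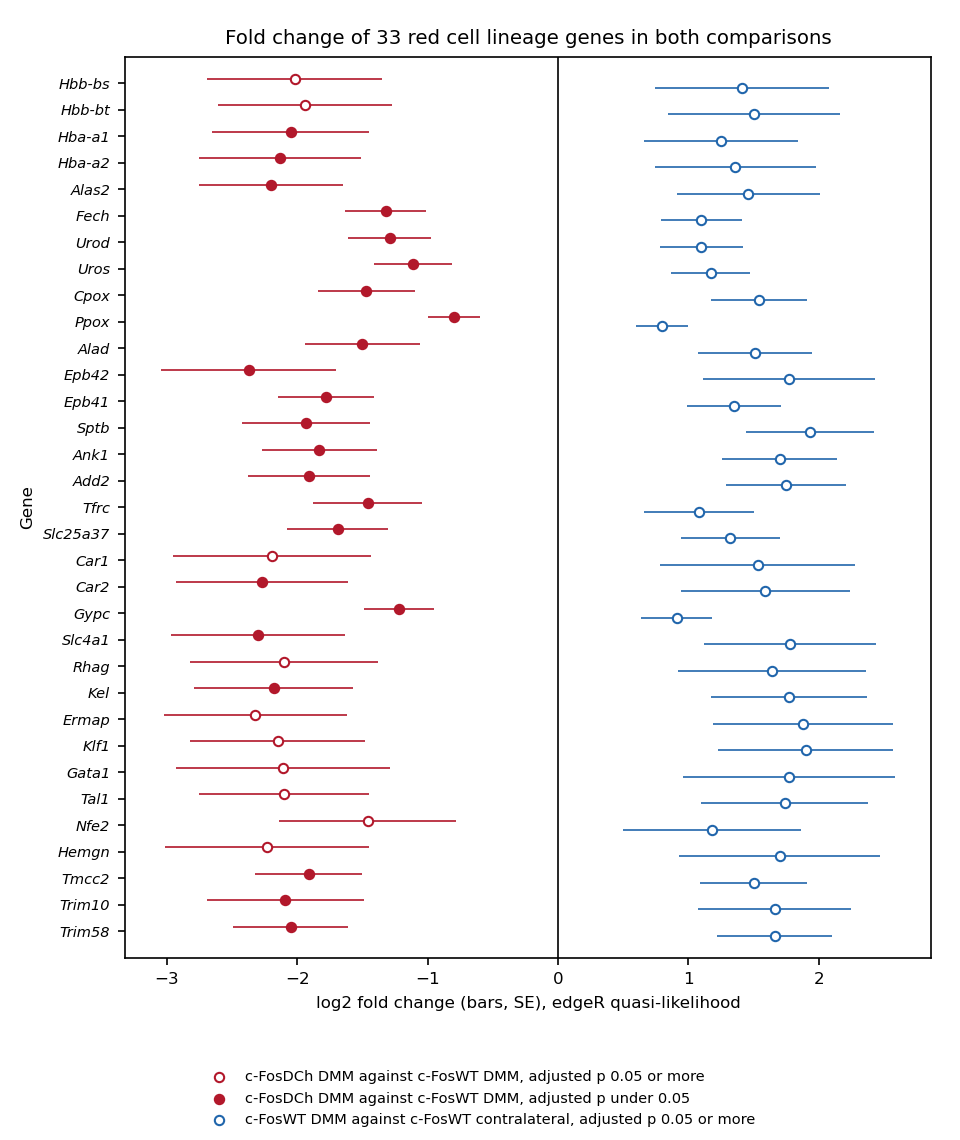
Log2 fold change with SE of 33 red cell lineage genes in c-FosDCh DMM against c-FosWT DMM (red) and c-FosWT DMM against c-FosWT contralateral (blue), by edgeR over 18125 genes; filled points have an adjusted p under 0.05. Red points lie from -2.37 to -0.80, with 23 filled, and blue points from 0.80 to 1.93, with 0 filled; the comparisons share the 3 c-FosWT DMM libraries.

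The median fold changes of granulocyte and of megakaryocyte and platelet markers had the same sign as those of the red cell genes, with 0 markers passing. The 18 granulocyte markers had a median log2 fold change of -1.08 in c-FosDCh DMM against c-FosWT DMM, with 18 of 18 negative, 1 of 18 without overlap (15.8% of all genes were lower without overlap) and 0 passing (lowest adjusted p 0.0683). In c-FosWT DMM against contralateral libraries their median was 0.78, with 18 of 18 positive, 3 of 18 without overlap (10.1% of all genes were higher without overlap) and 0 passing. Their summed level was 542 to 12879 CPM in c-FosDCh DMM, 9373 to 16612 CPM in c-FosWT DMM and 4161 to 12090 CPM in contralateral libraries, and no marker was at 0 in any library. The 11 tested megakaryocyte and platelet markers, of the lineage nearest to red cells, had a median of -1.74 between the DMM groups, with 11 of 11 negative, 9 of 11 without overlap and 0 passing. Between c-FosWT DMM and contralateral libraries their median was 1.2, with 10 of 11 positive, 5 of 11 without overlap and 0 passing. The summed level of the 12 listed was 622 to 922 CPM in c-FosDCh DMM, 1088 to 1677 CPM in c-FosWT DMM and 746 to 1477 CPM in contralateral libraries, and 1 of the 12 was at 0 in at least 1 library. Much of that sum was Thbs1, singled out after its values were seen; without it the sum was 31.2 to 442 CPM in c-FosDCh DMM, 583 to 1076 CPM in c-FosWT DMM and 95.7 to 581 CPM in contralateral libraries.

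Every marker of 5 further lists had a negative log2 fold change in c-FosDCh DMM against c-FosWT DMM. The median was -1.61 for 11 B cell markers (0 passing), -1.31 for 9 mast cell and basophil markers (1 fell), -1.12 for 10 macrophage markers (1 fell), -1.12 for 8 osteoclast markers (4 fell) and -2.72 for 12 skeletal muscle markers (0 passing), where 3.79% of all genes fell. Of 15 cartilage markers 5 rose, with a median of 0.76, where 10.6% of all genes rose. Their log2 fold changes were mixed, 11 positive and 4 negative, from -5.04 (Matn3) to 3.21 (Prg4). Between c-FosWT DMM and contralateral libraries no marker of these lists passed; the median was 0.55 for B cells (11 of 11 positive), 0.64 for mast cells and basophils (7 of 9), 0.29 for macrophages (9 of 10), 0.21 for osteoclasts (7 of 8), 1.02 for skeletal muscle (12 of 12) and -0.64 for cartilage (3 of 15). The summed level of skeletal muscle markers was 95.4, 1227, 232 and 486 CPM in c-FosDCh DMM and 9318, 572 and 261 CPM in c-FosWT DMM. In contralateral libraries it was 293, 6183, 55.4 and 448 CPM. Apart from replicate 1, the c-FosWT DMM muscle sums thus lay within the c-FosDCh DMM range. The B cell sum was 58.9 to 329 CPM in c-FosDCh DMM, 223 to 660 CPM in c-FosWT DMM and 253 to 408 CPM in contralateral libraries. Of these lists, 3 mast cell and basophil markers and 1 B cell marker were at 0 in at least 1 library. With the granulocyte level as a covariate, the members' median was -1.18 between the DMM groups and 1.18 between c-FosWT DMM and contralateral libraries. In both comparisons 0 of 33 members passed, as did 0 of all 18125 tested genes, so the count is not particular to the members. The part of any of these cell types in the red cell difference was not tested.

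Within a library, the red cell genes could be set against the granulocyte markers. The median log2 CPM of the 18 blood lineage members minus the granulocyte level was -3.73, -2.17, -2.75 and -1.03 in c-FosDCh DMM, -1.60, -1.83 and -1.83 in c-FosWT DMM and -3.26, -2.44, -3.15 and -2.30 in contralateral libraries. The c-FosWT DMM libraries were thus above all contralateral libraries on this scale as well. They were above c-FosDCh DMM replicates 1 to 3 but below replicate 4, in which both kinds of genes were low, with a granulocyte level of 3.80 against 6.6 to 8.48 in the other 3. Replicate 1 of c-FosDCh DMM had a granulocyte level of 8.48, the same as c-FosWT DMM replicate 2, and a red cell median of 4.74 log2 CPM against 6.65 in that library.

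**Figure D5:**
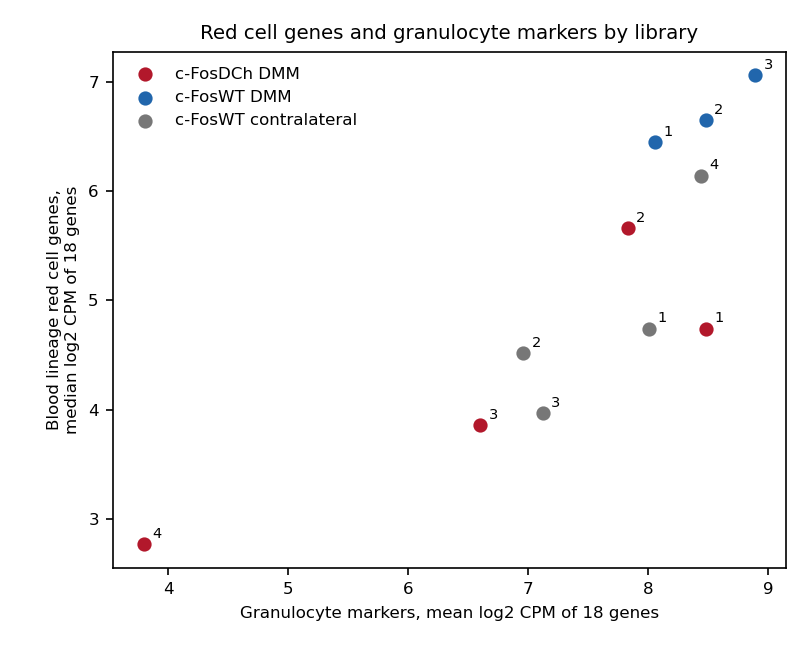
Median log2 CPM of the 18 red cell genes of the blood lineage (vertical) against the mean log2 CPM of 18 granulocyte markers (horizontal) in each of the 11 libraries, numbered by replicate within group. The c-FosWT DMM points are the highest (6.45 to 7.06), c-FosDCh DMM replicate 4 is the lowest on both axes (2.77 and 3.80), and c-FosDCh DMM replicate 1 has a granulocyte level within the c-FosWT DMM range with a red cell median of 4.74.

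Against unoperated wild-type knees, the c-FosDCh DMM knees differ in genotype and surgery at once. All 33 members overlapped between c-FosDCh DMM and c-FosWT contralateral libraries, where groups without overlap made up 2.28% of tested genes in the higher and 2.12% in the lower direction. The median log2 fold change was -0.39, from -0.80 (Hba-a1) to 0.07 (Cpox), with 29 negative and 4 positive (the haem enzymes Cpox, Uros, Ppox and Alad, at 0.00 to 0.07), where 49.7% of all genes were positive. In edgeR 0 of 33 members and 0 of 18125 genes passed (0.0%), with 0 members and 1512 genes at an unadjusted p under 0.05, and DESeq2 called 0 members and 41 genes (0.227%). The difference was -0.61 ± 0.62 (SE) for Hbb-bs, -0.74 ± 0.51 for Alas2 and -0.52 ± 0.62 for Slc4a1, with adjusted p of 0.717, 0.638 and 0.753 in edgeR. The median of the members was 0.13 without contralateral replicate 4 and -0.80 without c-FosDCh DMM replicate 2, each left out alone, so its sign rests on single libraries.

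A further 81 genes of the same pathways were listed by role, also with earlier results of these data known, and 76 were tested. They showed how far the pattern reaches. Between c-FosDCh DMM and c-FosWT DMM, 29 of 76 fell and 1 rose (14.4% of all genes passed in either direction), with a median log2 fold change of -1.0. The count of 30 was 46 in limma-voom with the animal as a random block. It was 0 with the granulocyte level as a covariate and 0 with only the libraries of both DMM groups. It was also 0 without c-FosDCh DMM replicate 3 or 4, c-FosWT DMM replicate 2 or 3, or contralateral replicate 1 or 2, each left out alone. In these fits at most 1 gene passed over all genes. The count was 18 without contralateral replicate 3 (1355 genes over all) and 49 without c-FosDCh DMM replicate 2 (4626 genes over all). In red cell maturation and metabolism 12 of 17 fell, in other haem synthesis, import and handling 7 of 15, in other membrane and skeleton 5 of 17, in other transcription and signalling 3 of 16, and in iron handling 1 of 10. Of the 6 other globins only Hbq1b was tested, and it fell (log2 -2.12 ± 0.62 SE, adjusted p = 0.0475). Bpgm, which sets the level of 2,3-bisphosphoglycerate, had 50.7 CPM in c-FosDCh DMM against 155 CPM in c-FosWT DMM and fell 3.06-fold (log2 -1.61 ± 0.32 SE, adjusted p = 0.0332). Cat, catalase, had 39.8 against 82.5 CPM in the same order and fell 2.07-fold (-1.05 ± 0.20, 0.0332). Tmod1, tropomodulin, which caps the actin of the skeleton, had 9.39 against 43.8 CPM and fell 4.64-fold (-2.21 ± 0.47, 0.0332). Eif2ak1, the kinase that slows globin translation when haem is short, had 57.3 against 122 CPM and fell 2.13-fold (-1.09 ± 0.22, 0.0332). Xpo7, a nuclear exporter, had 147 against 336 CPM and fell 2.28-fold, and Rnf10, a ubiquitin ligase, had 176 against 286 CPM and fell 1.62-fold, both with an adjusted p of 0.0332.

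Slc2a1, the glucose transporter GLUT1, went the other way. It had 102, 78.8, 215 and 379 CPM in c-FosDCh DMM, against 45.7, 22.4 and 39.3 CPM in c-FosWT DMM and 97.6, 91.1, 111 and 60.9 CPM in contralateral libraries. It rose 5.41-fold between the DMM groups (log2 2.44 ± 0.53 SE, adjusted p = 0.0332) and was highest in c-FosDCh DMM replicate 4, the library lowest in most red cell genes. Between c-FosWT DMM and contralateral libraries 0 of the 76 genes passed in edgeR, as did 0 of all 18125 tested genes. DESeq2 called 21 of the 76 higher, beside 2.48% of all genes. In edgeR the 3 with the smallest p, none passing, were Rnf10 (log2 0.66 ± 0.14 SE), Eif2ak1 (0.94 ± 0.22) and Isg20, an exonuclease (1.08 ± 0.27), each with an adjusted p of 0.182. Between c-FosDCh DMM and contralateral libraries 0 of 76 passed in edgeR, as did 0 of all 18125 tested genes. There the 3 with the smallest p were Cat (-0.54 ± 0.19), Slc2a1 (1.10 ± 0.46) and Cd36 (-1.27 ± 0.56), each with an adjusted p of 0.584.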

How the data were processed

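The submitters' processing notes name STAR 2.6.1a, bcl2fastq 2.19.1.403, DESeq2 1.22.2, RSEM and the build GRCm38. The authors deposited raw gene counts in STAR's layout, with a file for each library; the sources used here state neither strand column nor annotation release, so counts of the 9 members with exons under an antisense gene (Alas2 among them, with 372 bases under Apex2) are uncertain. Read classes that are not genes stayed out of totals and tests: 7.33 to 26.33% unmapped, 6.79 to 10.19% multimapping, 33.18 to 41.97% without a feature and 0.62 to 0.94% ambiguous. Reads shared by near-identical genes therefore stayed uncounted where they mapped to both. Identifiers were matched to GENCODE M21 symbols. All library pairs within a group differed beyond sampling noise (lowest chi-square per degree of freedom 31.03). The c-FosDCh DMM replicates were numbered by accession.

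All 11 libraries entered 1 edgeR 4.0.16 fit in R 4.3.3 (filterByExpr, TMM, glmQLFit with robust estimation, group as the only term), tested two-sided over 18125 genes with Benjamini-Hochberg adjustment at 0.05. ± is the SD of CPM or the SE of a log2 fold change. log2 CPM used a prior count of 2. DESeq2 1.42.0 and limma 3.58.1 gave alternatives, DESeq2 with some adjusted p left as NA. The fit was tested on simulated data. Titles tie 3 DMM libraries to contralateral libraries of the same animals; their deviations from the group means correlated at -0.17, -0.18 and 0.25. Tables were prepared in Python 3.11.15 and figures in matplotlib 3.10.9.

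The members, lists and tests were chosen with earlier results of these data known. Values by library were given for 10 fixed members (the globins, Alas2, Slc4a1, Klf1, Gata1, Tfrc and Ube2o) and the 10 further members with the smallest p among those passing; of the other pathway genes, up to 6 per direction by smallest p were named, or the 3 with the smallest p where none passed. Isg20, Alas1 and the other globins, and members given with a fold but without values by library, were named outside this rule after their values were seen.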

Additional observations from a re-analysis of the deposited data

Results flagged for a closer look

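In groups of 4 libraries, a library was singled out when its gap to its nearest neighbour, as a share of the group's range, exceeded Dixon's critical value for 4 values. By chance this happens in about 1 in 20 groups of separate, normally distributed values. The genes here vary together across the same libraries, so the count of flagged groups cannot be set against that rate. Of 68 groups of 4 libraries examined for the 34 genes, 14 had such a library. In 13 of them it was contralateral replicate 4, the highest of its group: Hbb-bs at 3523 CPM, Hbb-bt at 840 CPM, Hba-a1 at 652 CPM, Hba-a2 at 433 CPM, Alas2 at 250 CPM, Epb42 at 60.1 CPM, Car1 at 43 CPM, Car2 at 281 CPM, Fech at 223 CPM, Cpox at 109 CPM, Slc25a37 at 406 CPM, Rhag at 49.9 CPM and Ermap at 115 CPM. This library came from the animal whose DMM knee held the highest level of 33 of the 34 genes. The granulocyte level of that library, 8.44 log2 CPM, was also the highest of its group, against 8.01, 6.96 and 7.12 in replicates 1 to 3, and its part in these values was not tested. In the other group it was c-FosDCh DMM replicate 2, in which Ank1 had 162 CPM against a next highest value of 81.6 CPM.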

How the results depend on the processing

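Every member kept its direction in c-FosDCh DMM against c-FosWT DMM and in c-FosWT DMM against contralateral libraries under the alternatives run. In the first comparison, members passing numbered 23 and changed to 7 with no filter on low counts and to 0 with only the libraries of both groups, with the granulocyte level as a covariate, without c-FosDCh DMM replicates 3 and 4 together, and without both knees of animal 3 (the last 2 chosen after seeing the data); leaving out 1 library gave 0 to 30. DESeq2 gave 32, limma-voom 30, totals 21 and upper quartiles 24. Under these settings, in the same order, the 30 pathway genes changed to 14, 0, 0, 0 and 0, with 52 in DESeq2, 46 in limma-voom, and 0 to 49 with 1 library left out; the 2616 genes over all changed to 1443, 0, 0, 0 and 0, with 5358 in DESeq2 and 0 to 4626 with 1 library left out. The animal as a random replicate block in limma-voom gave 30 members, 46 pathway genes and 3500 genes in all, against 30, 46 and 3501 without the block, and the fixed block changed no call. Scaling by totals shifted the median of all genes to -0.18 between the DMM groups and to -0.17 in c-FosDCh DMM against contralateral libraries.

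In c-FosWT DMM against contralateral libraries, DESeq2 called 15 members, 21 pathway genes and 902 genes in all, where the other alternatives called 0; leaving out 1 library gave 0 to 0 for each. In c-FosDCh DMM against contralateral libraries, DESeq2 called 41 genes and leaving out 1 library gave 0 to 1. There Hbb-bs turned to 0.10 and Slc4a1 to 0.12 without c-FosDCh DMM replicates 3 and 4, and Slc4a1 to 0.11 without both knees of animal 3 and 0.11 without contralateral replicate 4 (-1.22 to 0.11 with 1 library left out). The cause of these changes was not tested. The lowest count behind a member's value was 10 reads, for Gata1 in c-FosDCh DMM replicate 4.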
